A study of Daphnia magna with 24 samples.

Results

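Water taken downstream of the portal of Walker Mine was compared with COMBO medium on 6 two-colour arrays, out of 24 arrays in the series. The animals were adult females of Daphnia magna, a water flea, from a genetically homogeneous purchased stock raised in COMBO modified for water hardness. They were 14 to 16 days old and were held in the field water for 24 h at 23.5 °C. The 6 arrays were chosen by their titles and come from 3 exposures, the biological replicates of the labels. RNA of each exposure came from 10 to 15 whole animals ground together, so a lower ratio cannot tell less RNA per cell from fewer cells of a type. Each exposure was hybridised against unexposed animals on 2 arrays, with the exposed animals in Cy5 on the first and in Cy3 on the second. For comparison, 3 exposures each were made with upstream water, with water from below the tailings and with water of Little Grizzly Creek. All were compared with unexposed laboratory animals in COMBO, a defined culture medium for freshwater algae and zooplankton. The field water was collected on a single day, so the exposures repeat the exposure and not the sampling of the water. The waters differed in copper according to the design text, which gives no concentrations.

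Copper is an essential metal that serves as a cofactor of respiratory and antioxidant enzymes. In excess it generates reactive oxygen species and disturbs sodium balance, to which freshwater crustaceans are sensitive. Animals bind surplus copper with metallothioneins, small cysteine-rich proteins, and Daphnia is a standard test animal for such exposures. None of the 7680 identifiers on the arrays matched the RefSeq table of 28335 Daphnia magna genes, and the deposited table does not pair them with genes. Members of these pathways therefore could not be picked out, and features are called by their deposited identifiers.

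Values are the deposited log ratios, read as log2 of exposed over control. Neither the base nor the direction is stated. Both arrays of each portal exposure correlated positively across features (0.673, 0.673 and 0.616 in exposures 1, 2 and 3), so opposite dyes had already been turned the same way. The direction of single exposures cannot be settled from these values. The first array of exposure 3 correlated at -0.331 with the array of the same dye from upstream exposure 2 and at -0.359 with that from Little Grizzly Creek exposure 2. After averaging, exposure 3 still correlated negatively with these exposures, at -0.322 for upstream exposure 2 and at -0.375 for creek exposure 2. It correlated at 0.485 with exposure 1 of its own site, at 0.786 with upstream exposure 3 and at 0.431 with exposure 3 of the creek. Portal exposure 2 correlated at 0.383 with portal exposure 1 and at -0.0018 with portal exposure 3. Both negative partners are an exposure 2, and the first array of upstream exposure 2 also correlated at -0.276 with that of portal exposure 1. Counts with the sign of an exposure turned are given below.

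Portal exposures differed in spread and in completeness. Averaged over both arrays, the SD across features was 0.605 in exposure 1, 0.30 in exposure 2 and 0.792 in exposure 3. The middle 90% of features lay between -0.964 and 0.763 in exposure 1, between -0.535 and 0.428 in exposure 2 and between -0.939 and 1.36 in exposure 3. Exposure 2 was thus the most compressed and exposure 3 the widest. The typical dye-swap error, taken as the median over features of the distance of each array from their mean, was 0.113, 0.0777 and 0.213. Blank cells left 6979, 7323 and 4531 features with a value on both arrays, and 4387 features had all 3 exposures. Another 2565 had 2 exposures, 542 had 1 and 186 had none.

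Averaged over the 3 exposures, no feature differed from COMBO at an adjusted p under 0.05. The test was limma's moderated test of the portal mean against 0, fitted to all 12 exposures of the 4 sites, with Benjamini-Hochberg adjustment over 6504 features (0% called). The smallest adjusted p was 0.0717 and was shared by 44 features. By the same test 525 features had an adjusted p under 0.1, so the count of 0 depends on the threshold. At an unadjusted p under 0.05 there were 1428 features (22%), of which 723 were higher and 705 lower in portal water. Their median absolute change was 0.335, and 114 changed by at least 1 unit. With 3 values available for 1135 of them, 1046 had the same sign in all 3 exposures, which selection by p favours. Among all 4387 features with 3 values, 1004 were below 0 in all 3 and 856 above. These p-values borrow spread from the other sites, whose exposures differed less among themselves. The median SD of 3 exposures was 0.209 for portal water, 0.142 for upstream, 0.184 for tailings and 0.155 for creek water. With portal water fitted alone, 704 of 6952 features had an unadjusted p under 0.05 by limma, and the smallest adjusted p was 0.46. In the fit of 4 sites, turning the sign of exposure 1, 2 or 3 also gave 0 features at an adjusted p under 0.05. At an unadjusted p under 0.05 by limma it gave 225, 575 and 592, in place of 1428.

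The count rose when exposure 2 was left out, to 484 of 4356 features (11.1%), 219 higher and 265 lower. Without exposure 1 or exposure 3 it stayed at 0. It was 170 of 3661 (4.64%) among features with a value in every exposure of every site, 221 (3.4%) with exposures weighted by their fit, and 252 (3.87%) over 24 arrays with a dye term. With the exposure number as a fixed block it was 1087 (16.7%). Such a block takes the spread shared by same-numbered exposures out of the error, so p-values with the block, here and below, leave that spread out. With the number as a random effect no feature passed.

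**Figure D1:**
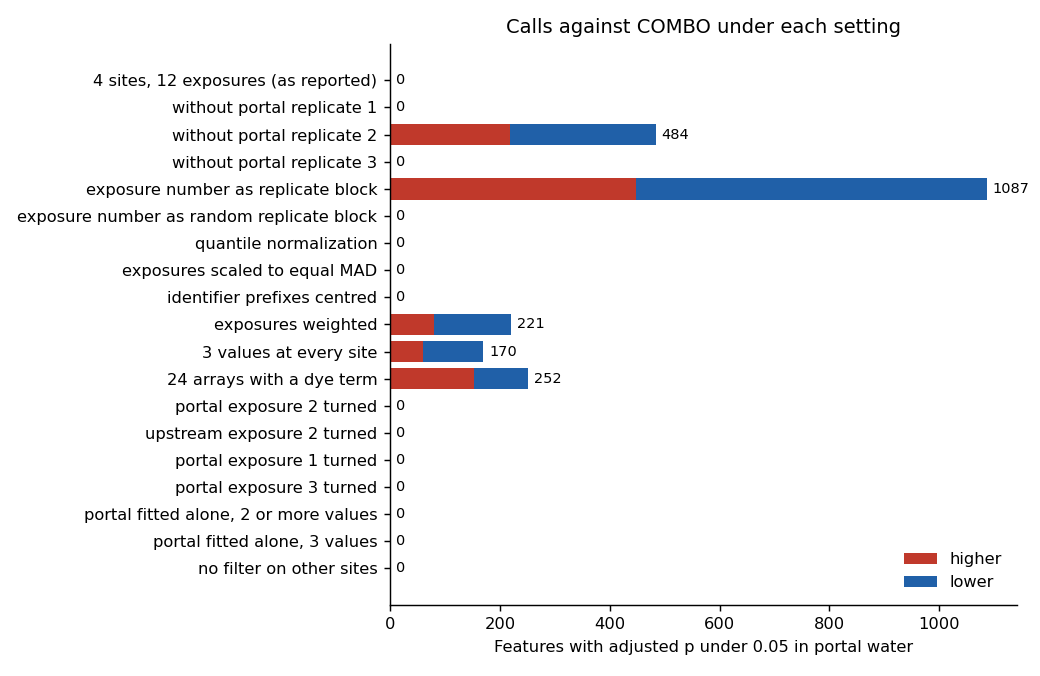
Number of features with an adjusted p under 0.05 by limma in portal water against COMBO (x axis) under each setting (y axis), with rises in red and falls in blue. The reported fit gave 0, and 5 settings gave between 170 and 1087.

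Across those 5 settings with calls, 3661 features were tested in all, and 54 were called every time, 21 higher and 33 lower. These were picked for their low p-values, so the following is a description. Their changes were small, with a median absolute mean of 0.404 (range 0.279 to 1.68), and all 54 had the same sign in the 3 exposures. The 21 higher features had medians of 0.555, 0.334 and 0.677 in exposures 1, 2 and 3, and the 33 lower ones -0.429, -0.284 and -0.479. Exposure 2 was the weakest of the 3 in both directions. At the upstream site the site means of the same features had medians of 0.263 and -0.298, for the tailings 0.234 and -0.158, and at Little Grizzly Creek 0.0528 and -0.0390. By limma's contrast of site means (adjusted p under 0.05), 0 of the 54 differed from upstream water (0% of all features were called), 4 from tailings water (4%) and 3 from Little Grizzly Creek water (0.969%).

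To ask which responses recurred, a response in an exposure was defined as a mean of at least 1 unit from 0 with each array at least 0.5 from 0 on the same side. Rises and falls are named below by this rule of size, which is no test. Among the 4387 features with 3 values, 59 rose (1.34%) and 139 fell (3.17%) in exposure 1, 1 rose (0.0228%) and 17 fell (0.388%) in exposure 2, and 295 rose (6.72%) and 175 fell (3.99%) in exposure 3. No feature responded in all 3 exposures in either direction. Exposures 1 and 3 shared 43 rises, which are 72.9% of the rises in exposure 1 and 14.6% of those in exposure 3. They also shared 58 falls, 41.7% and 33.1% of the respective lists. Exposures 1 and 2 shared 12 falls, 8.63% of those in exposure 1 and 70.6% of those in exposure 2, of which 10 did not respond in exposure 3 and 2 rose there. Exposures 2 and 3 shared none. Responses in a single exposure made up 450 features, among them 246 rises and 117 falls in exposure 3 and 16 rises and 67 falls in exposure 1. Another 6 features responded in opposite directions in different exposures.

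**Figure D2:**
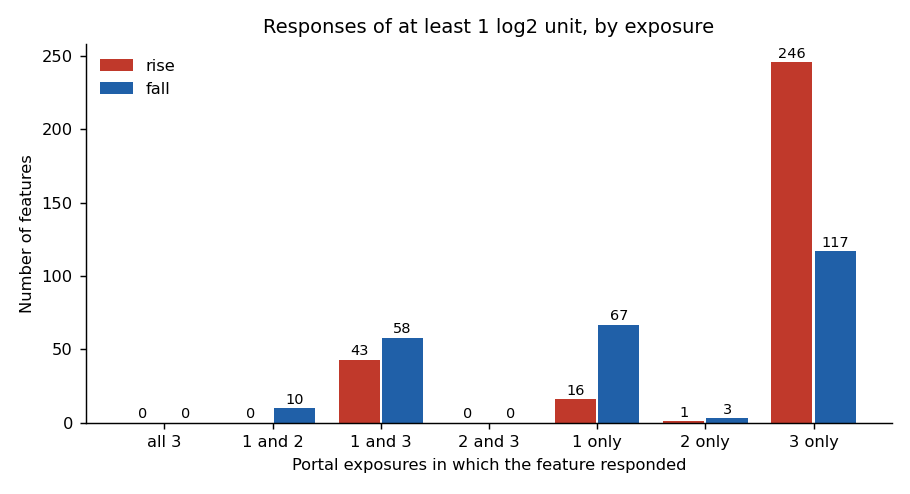
Number of features (y axis) by the portal exposures in which they rose (red) or fell (blue) by at least 1 log2 unit (x axis), among features with 3 values. No bar stands at all 3 exposures, and the tallest are the 246 rises and 117 falls in exposure 3 only.

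**Figure D3:**
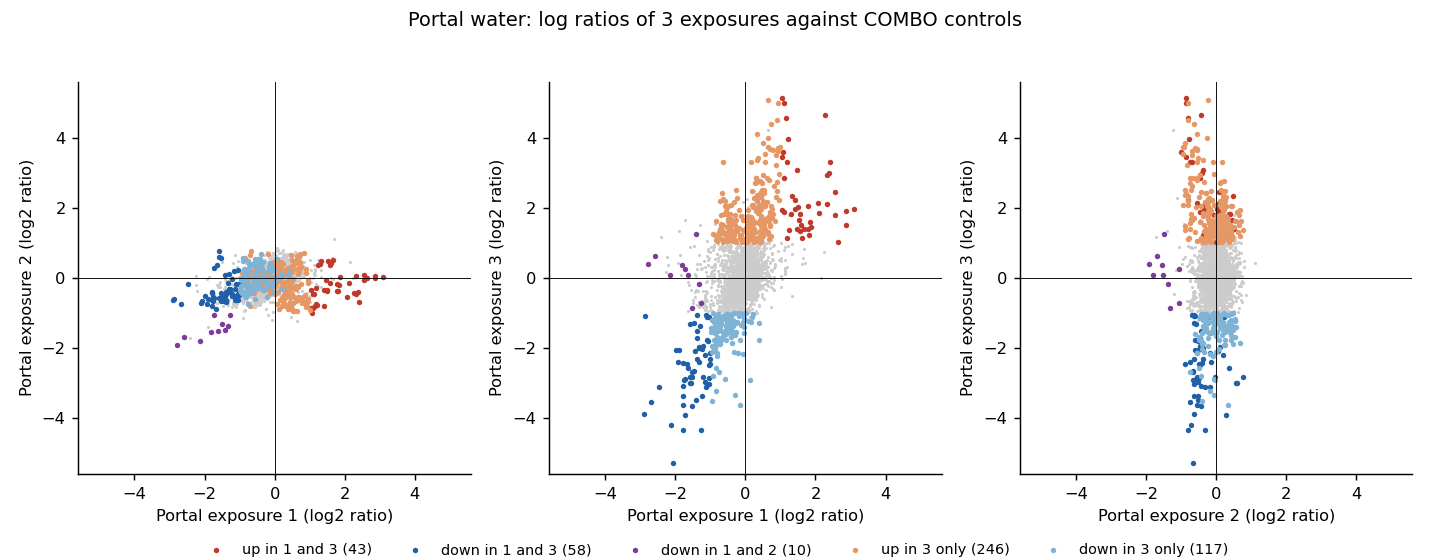
Log2 ratios of the 3 portal exposures plotted in pairs, with a point for each of 4387 features and the response classes coloured, their sizes in brackets. Exposure 2 is compressed along its axis in both panels that hold it, and the 43 rises and 58 falls shared by exposures 1 and 3 lie along the diagonal of the middle panel.

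The absence of a response in all 3 exposures depended on the height of the threshold. With a mean of at least 0.6 and each array at least 0.3 from 0, 5 features rose and 37 fell in all 3. Under that rule 2.99% rose and 7.64% fell in exposure 1, 1.14% and 3.1% in exposure 2, and 12.6% and 8.5% in exposure 3. Dividing each exposure by its spread, which multiplied exposure 2 by 1.49 and exposure 3 by 0.712, gave 0 rises and 6 falls at 1 unit. The shares per exposure were then 1.53% and 3.62%, 0.501% and 2.3%, and 4.26% and 2.33%. Quantile normalisation of the 3 exposures gave 0 and 11. With exposure 3 turned, 2 features fell in all 3, and those in exactly 2 exposures numbered 14 in place of 111. With exposure 1 turned they numbered 2, and with exposure 2 turned 103. In each of these settings that gave any fully recurrent response, falls outnumbered rises.

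Beside the features with 3 values, 2436 lacked only exposure 3. Of these, 4 rose and 18 fell in both other exposures, so most of the responses shared by exposures 1 and 2 (4 of 4 rises and 18 of 30 falls) could not be followed into exposure 3. Features blank in exposure 3 lay at least 1 unit from 0 in exposure 1 more often (371 of 2552, 14.5%) than features with a value in exposure 3 (217 of 4427, 4.90%). The count over 3 exposures leaves the former out.

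Features that responded in both exposures 1 and 3 were chosen without exposure 2, which gives a further value for each. The 58 falls had a median of -0.504 in exposure 2 (quartiles -0.629 and -0.320), and 49 of them (84.5%) were below 0, against 53.5% of all 4387 features. The 43 rises had a median of -0.293 there, and 13 of them (30.2%) were above 0, against 46.5% of all features. The falls thus went the same way in exposure 2 at a smaller size, and the rises did not. The 12 falls shared by exposures 1 and 2 had a median of 0.298 in exposure 3, with 3 below 0, and that sign turned under the 0.6 rule (-0.687, 63 features) and after scaling (-0.483, 33 features).

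Ranked by the smallest of the 3 exposures, the first of the 5 recurrent rises under the 0.6 rule were P9BF11 and P9DD8. That rule was used for names after no feature met the 1-unit rule. P9BF11 stood at 0.850, 0.696 and 1.61 in exposures 1, 2 and 3 (mean 1.05 ± 0.490, SD, n = 3; adjusted p = 0.0717 by limma). P9DD8 stood at 0.722, 0.681 and 1.20 (mean 0.867 ± 0.287, SD, n = 3; adjusted p = 0.0717 by limma). All 6 arrays were at 0.592 or above for both features, and exposure 3 was the highest. Both also lay above 0 in all 9 exposures of the other sites, with means of 0.404 and 0.379 in upstream water, 0.833 and 0.786 in tailings water and 0.793 and 0.837 in Little Grizzly Creek water. Neither passed limma's threshold between portal and another water (adjusted p of 0.698 or more). Both passed against COMBO once exposure numbers were a block (adjusted p = 0.0192 and 0.0201 by limma), and with it as a random effect neither did (0.0760 for both).

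The matching falls were A7G7 and P1AB3. A7G7 stood at -1.67, -0.890 and -2.46 in exposures 1, 2 and 3 (mean -1.67 ± 0.784, SD, n = 3; adjusted p = 0.134 by limma). P1AB3 stood at -1.51, -1.31 and -0.872 (mean -1.23 ± 0.326, SD, n = 3; adjusted p = 0.0897 by limma). Every portal array was below 0 for both. At the other sites A7G7 ran from -2.37 to 0.678 and P1AB3 from -1.30 to 0.282, so the other sites overlapped the portal values. With the block A7G7 passed against COMBO (adjusted p = 0.00353 by limma; 0.0844 with a random effect) and P1AB3 did not (0.0554).

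P3CB12 and P5CE10 led the rises shared by exposures 1 and 3. P3CB12 stood at 2.55, 0.0677 and 2.44 (mean 1.68 ± 1.40, SD, n = 3; adjusted p = 0.0751 by limma). Its arrays in exposure 3 were far apart, at 4.15 and 0.726. With the block its adjusted p was 0.0215 by limma, and 0.0769 with a random effect. P5CE10 stood at 2.37, -0.408 and 2.98 (mean 1.65 ± 1.80, SD, n = 3; adjusted p = 0.179 by limma). At the other sites these 2 features parted. P3CB12 lay between 3.18 and 3.78 in all 6 exposures to tailings or creek water, above every portal exposure. P5CE10 lay between -0.422 and 0.502 there, except for -2.60 in tailings exposure 3.

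The 43 rises shared by exposures 1 and 3 divided in the same way, a split drawn after the values were seen. Among them 17 stood at 1 or more in all 3 tailings exposures, with medians of 2.73, 2.71 and 2.43 there and of 2.85, 2.92 and 2.75 in the creek exposures. Their portal medians were 1.88, 0.0677 and 1.78. Another 25 stood at -1 or below in tailings exposure 3, with a median of -2.31, and with medians of 0.405 and 0.359 in the other tailings exposures. In portal water the medians of these 25 were 1.42, -0.451 and 2.86. At the upstream site both subsets had medians between -0.681 and 0.573. None of the 43 passed limma's threshold for a difference between portal and any other site (0% called against upstream, 4% against tailings and 0.969% against Little Grizzly Creek water).

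P8CA12 and A6O13 led the falls shared by exposures 1 and 3. P8CA12 stood at -2.47, -0.178 and -3.11 (mean -1.92 ± 1.54, SD, n = 3; adjusted p = 0.167 by limma), and A6O13 at -1.79, -0.439 and -3.10 (mean -1.78 ± 1.33, SD, n = 3; adjusted p = 0.177 by limma). With the block both passed (adjusted p = 0.0315 and 0.00303 by limma), and with a random effect neither did (0.124 and 0.0924). In upstream water the same features stood at -3.07, 0.925 and -2.62, and at -1.31, 0.415 and -2.06. In both waters the lowest values were those of exposures 1 and 3. In exposure 2 both features were above 0 in upstream water and below 0 in portal water. The arrays of A6O13 in portal exposure 3 were far apart, at -5.11 and -1.09, while those of P8CA12 read -3.27 and -2.95.

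The whole class was chosen for its falls in portal exposures 1 and 3. In each of the other waters its medians were also lower in exposures 1 and 3 than in exposure 2. The median in exposure 2 was below 0 in portal water and above 0 in each of the other waters. The 58 falls had upstream medians of -1.40, 0.524 and -1.70 in exposures 1, 2 and 3, beside portal medians of -1.43, -0.504 and -2.47. In Little Grizzly Creek water the medians were -0.746, 0.257 and -2.16, and in tailings water -0.291, 0.691 and -1.64. The 10 falls shared by exposures 1 and 2 of portal water were near 0 in exposure 3. Their portal medians were -1.67, -1.52 and 0.164, and their upstream medians were -1.51, -1.49 and -0.0793. Their medians were -0.850, -1.01 and 0.0234 for the tailings and -0.331, -1.20 and 0.0333 for the creek, so creek exposure 1 was less low than the others numbered 1. Whether exposures of one number used the same control RNA is not stated, so the exposure number and a shared control cannot be told apart. These values stand side by side without a test.

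**Figure D4:**
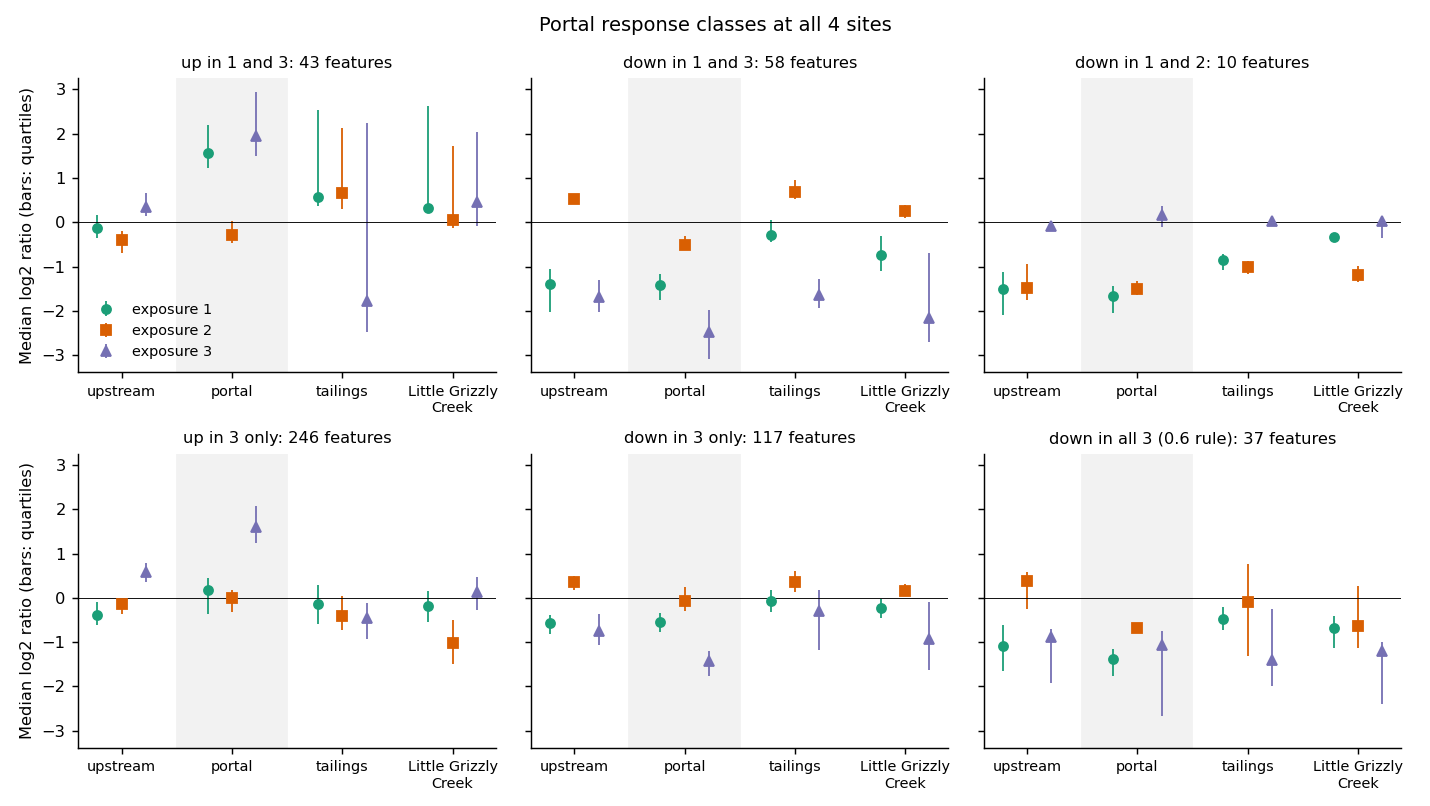
Median log2 ratio (points, with quartiles as bars) of 6 portal response classes in each of the 12 exposures, grouped by site, with a colour and marker for each exposure number and portal water shaded. The 58 falls of exposures 1 and 3 are low in exposures 1 and 3 of upstream water too (-1.40 and -1.70), and the 10 falls of exposures 1 and 2 are low in those of upstream water (-1.51 and -1.49).

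Responses in exposure 3 alone were the most numerous and the least even between arrays. The 2 features that led the rises were P5AD8, at 0.328, -0.366 and 3.36 in exposures 1, 2 and 3, and P11AD11, at 0.174, -0.0953 and 3.30. On the first and second arrays of exposure 3 they read 4.88 and 1.85, and 5.71 and 0.896. The falls were led by P6BC8, at -0.167, 0.346 and -3.64, and A7D8, at -0.294, -0.0770 and -3.36. Their arrays read -1.38 and -5.91, and -6.13 and -0.590. None of the 4 had an adjusted p under 0.262 against COMBO by limma. Among all 295 rises in exposure 3 the median dye-swap error was 0.339, the first array was the higher in 254, and both arrays passed 1 unit in 195 (66.1%). Among its 175 falls the error was 0.389, the first array was the lower in 114, and both arrays passed 1 unit in 108 (61.7%). The first array was thus the further from 0 in most responses of both directions. The errors were 0.113 for rises and 0.178 for falls in exposure 1, and 0.0572 for falls in exposure 2. Asking for 1 unit on each array left 300 features that responded in exactly 1 exposure and 81 in exactly 2. What the unevenness between arrays contributes to the count of exposure 3 was not tested beyond that.

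The 246 rises of exposure 3 alone had a median of 1.60 there and 0.578 in upstream exposure 3, where 236 of 242 were above 0. Their median in Little Grizzly Creek exposure 2 was -1.01, with 123 of 243 at -1 or below. The 117 falls had a median of -1.41, and of -0.756 and -0.919 in exposure 3 of upstream and Little Grizzly Creek water. Among 244 of the rises that could be tested, 4 were higher in portal than in tailings water and 2 higher than in Little Grizzly Creek water by limma. In the same direction, 25 and 20 of all 4330 tested features with 3 portal values passed. The value that selected the rises is part of the portal mean tested here, so the selection favours a higher portal ratio.

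**Figure D5:**
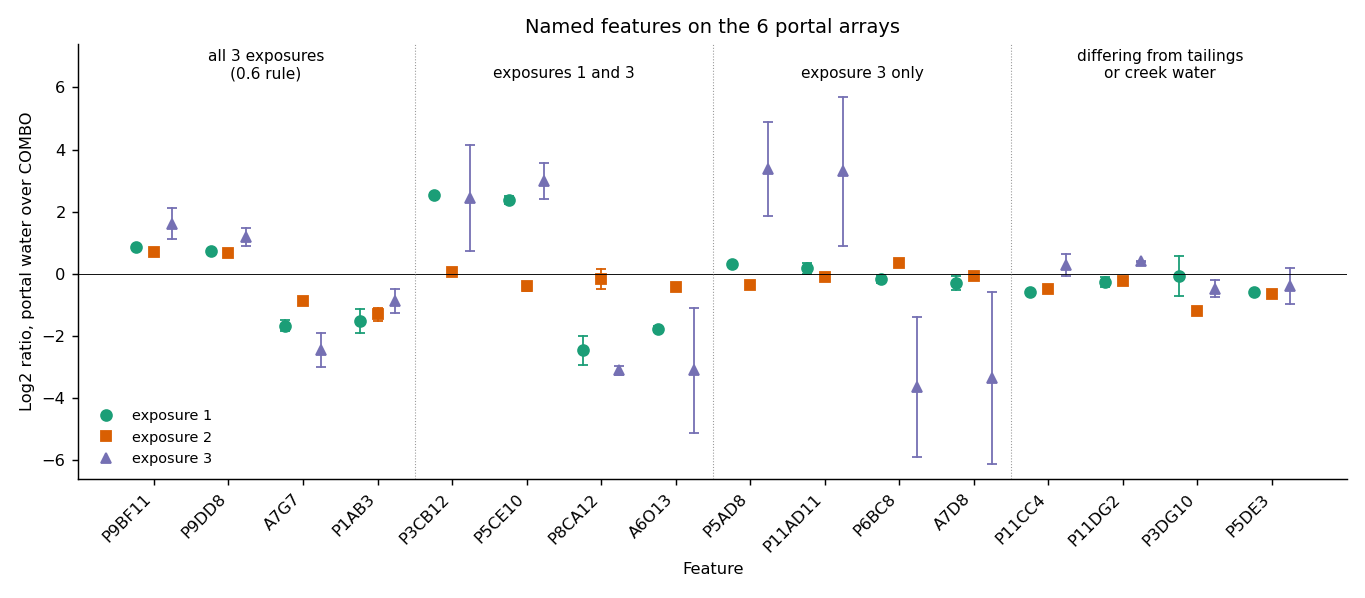
Log2 ratio of portal water over COMBO (y axis) for 16 features (x axis), with small ticks for both arrays of an exposure, joined by a line, and a marker at their mean. Arrays of exposure 3 lie far apart for the features of exposure 3 only (4.88 and 1.85 for P5AD8, -1.38 and -5.91 for P6BC8). They also lie far apart for P3CB12 and A6O13.

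Falling and rising classes differed in the identifiers they drew on. Of all 7680 features, 2688 (35%) have identifiers that begin with A, and the rest begin with P; the labels do not explain the letters. Among the 4387 features with 3 portal values 22.5% begin with A. They were 45 of the 58 falls (77.6%) and 2 of the 43 rises (4.65%) shared by exposures 1 and 3. In exposure 3 alone they were 81 of the 117 falls (69.2%) and 22 of the 246 rises (8.94%). With exposure 3 turned, the names of these last classes would exchange, to 117 rises and 246 falls, and the 58 and 43 shared responses would be opposite ones. None of the 10 falls shared by exposures 1 and 2 begins with A. Of values in exposure 1, 9.77% of those beginning with A were at -1 or below, against 2.56% of those beginning with P. In exposure 3 the shares were 13.6% and 1.67%, and in exposure 2 they were 0.123% and 0.799%. The contrast of portal exposures 1 and 3 held in upstream exposures 1 (10.3% and 1.90%) and 3 (15.3% and 0.544%), in tailings exposure 3 (24.9% and 3.83%) and in creek exposures 1 (8.01% and 2.89%) and 3 (24.9% and 1.31%). It went the other way in upstream exposure 2 (0.0437% and 0.620%), tailings exposures 1 (2.49% and 2.84%) and 2 (2.13% and 3.48%) and creek exposure 2 (4.07% and 6.22%). Values at 1 or above were also more frequent for A in portal exposure 1 (5.90% and 2.60%), and less frequent in portal exposure 3 (4.28% and 8.82%). In portal exposure 3, 60.9% of features beginning with A were blank, against 30.3%. Centring each array on the median of each of 59 identifier prefixes left 102 features responding in exactly 2 exposures and 410 in exactly 1, beside 111 and 450.

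Direct tests against the other waters placed portal water apart from tailings and Little Grizzly Creek water, and not from upstream water. Between portal and upstream water limma called 0 of 6504 features (199 or 3.06% at an unadjusted p under 0.05), also with the exposure number as a block. Between these 2 sites, exposures of one number departed from their site means together (0.513, 0.647 and 0.824 across features). A count of 0 does not show that both waters act alike. Against tailings water 260 features (4%) passed, of which portal water had the higher ratio in 40 and the lower in 220. Over 24 arrays with a dye term the split was 124 and 158. Little Grizzly Creek water differed in 63 (0.969%), 26 higher and 37 lower, and in 232 (3.57%) with the exposure number as a block, 138 higher and 94 lower. The balance of directions thus turned with the block, as it did with a dye term (115 and 93), while quantile normalisation gave 6 higher and 48 lower.

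The features with the largest of these differences had portal means nearer to 0 than those of the other site. P11CC4 stood at -0.592, -0.501 and 0.287 in the portal exposures and at -2.92, -3.07 and -2.47 in those of Little Grizzly Creek (higher in portal water by 2.55, SE 0.234, adjusted p = 0.00145 by limma). P11DG2 stood at -0.250, -0.218 and 0.402 against -2.42, -2.66 and -2.41 (higher by 2.48, SE 0.211, adjusted p = 0.00129 by limma). P3DG10 stood at -0.065, -1.21 and -0.474 in portal water against 3.08, 1.57 and 2.50 in tailings water (adjusted p = 0.0137 by limma). P5DE3 stood at -0.593, -0.656 and -0.397 against 2.32, 1.16 and 1.46 (adjusted p = 0.0125 by limma). These features were chosen for having no overlap between the sites. In upstream water P11CC4, P11DG2, P3DG10 and P5DE3 had means of -0.403, -0.292, -0.773 and -0.508. Their portal means were -0.269, -0.0219, -0.582 and -0.549, so values of this size were not particular to portal water. Some portal values average arrays of opposite sign. The arrays read 0.576 and -0.706 for P3DG10 in exposure 1. In exposure 3 they read 0.646 and -0.0714 for P11CC4, and -0.982 and 0.189 for P5DE3. Against COMBO none of the 4 passed, with adjusted p-values from 0.216 to 0.948 by limma.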

How the data were processed

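The values are ratios on a log scale as deposited by the authors, 1 for each feature of an array, read here as log2. Scanning, background correction, normalisation and filtering are not given in the sources used here. Medians of the 6 portal arrays lay between -0.00832 and 0.0177, so values had been centred; scale and direction stay unknown. Blanks were treated as missing. Signals per channel and depth are unknown, so the number of arrays limits the precision. Both arrays of an exposure were averaged where both had a value.

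limma 3.58.1 in R 4.3.3 (lmFit, eBayes) fitted 12 exposures with 1 mean per site, over 6504 features with at least 2 exposures at every site. The threshold was a Benjamini-Hochberg adjusted p of 0.05. The fit was tested on simulated data. Nothing says that exposures came from separate cultures, so p-values measure only the spread between these exposures, and control spread is left out where control RNA was shared. With the exposure number as a fixed block they also leave out the spread that same-numbered exposures share.

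Same-numbered exposures deviated together for portal with upstream water and with Little Grizzly Creek water (0.154, 0.587 and 0.555), with every correlation over 0.1, and not for portal with tailings water (0.103, 0.0402 and -0.132).

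Named features were at most 2 rises and 2 falls per class: recurrent in all 3 exposures (ranked by the smallest of the 3), in exposures 1 and 3 only with the other within 0.5 of 0 (by the smaller), in exposure 3 only with both others within 0.5 of 0 (by that value), and past the threshold against another site without overlap (by the difference). A class of features past the threshold against COMBO was empty, and the recurrent class was filled at 0.6. Members, lists and tests were chosen with earlier results of these data known. Alternatives covered normalisation, filters, weights, blocks, thresholds, single exposures left out and signs turned. Gene lists could not be used, since no identifier matched a gene. Counts and figures were made with Python 3.11.15, pandas 2.3.3 and matplotlib 3.10.9.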

Additional observations from a re-analysis of the deposited data

Results flagged for a closer look

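The change against COMBO differed between portal and tailings water in 260 features, and between portal and Little Grizzly Creek water in 63, by limma's contrast of site means in the fit of all 4 sites (adjusted p under 0.05). A difference between sites in the same contrast singled both out. With exposure 3 of portal water turned the counts were 63 and 25. No single value was screened for a sample far from the others, since each site has 3 exposures.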

How the results depend on the processing

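Against COMBO the count of 0 became 1087 with the exposure number as a replicate block, 221 with exposures weighted, 170 with 3 values at every site, 252 over 24 arrays with a dye term, and 0 to 484 with 1 exposure left out. It was 0 in the other alternatives, and against upstream water it was 0 in all 16 alternatives. The 260 features differing from tailings water became 636 with a replicate block, 561 with a random replicate block, 131 after quantile normalisation, 172 after scaling to equal spread, 116, 61 and 63 with portal exposure 1, 2 or 3 turned, 123 with upstream exposure 2 turned, and 141 to 333 with 1 exposure left out. The 63 differing from creek water became 232 with a replicate block, 281 with a random one, 170 after scaling, 366 weighted, 208 with a dye term, 28 and 25 with portal exposure 2 or 3 turned, 38 with upstream exposure 2 turned, and 25 to 108 with 1 exposure left out. Responses in all exposures numbered 5 rises and 37 falls at 0.6, 6 falls after scaling, 11 after quantile normalisation and 2 with exposure 3 turned. With 1 exposure left out they ran from 0 to 44 rises and from 0 to 58 falls. The 111 responses in exactly 2 exposures became 208 at 0.6, 9 at 2 units, 68 after quantile normalisation, and 2 and 14 with exposure 1 or 3 turned. The 450 in exactly 1 became 774 at 0.6, 152 at 2 units, and 442 to 488 with 1 exposure left out. In the exposure not used, the rises shared by exposures 1 and 3 moved to -0.570 after scaling, and the falls shared by exposures 1 and 2 to -0.687 at 0.6 and -0.483 after scaling. For the 16 named features, 245 of 285 alternative values kept the sign and the side of the threshold against COMBO, 22 passed it and 18 changed sign. With exposure 3 turned the means were -0.0218 for P9BF11, -0.337 for P5CE10, 0.156 for P8CA12, 0.292 for A6O13, -1.13 for P5AD8, -1.07 for P11AD11, 1.27 for P6BC8 and 0.996 for A7D8. With exposure 1 turned they were -0.0145 for P3CB12, 0.126 for P11CC4 and 0.145 for P11DG2, and with exposure 2 turned 0.0652 for P11CC4, 0.123 for P11DG2 and 0.222 for P3DG10. With 1 exposure left out P5AD8 ran from -0.0194 (without exposure 3) to 1.85, P6BC8 from -1.90 to 0.0892 (without exposure 3), and P11DG2 from -0.234 to 0.0922, at 0.0762 without exposure 2. Turning portal exposure 1 or 3, asking for 1 unit on each array and counting recurrence without each exposure were alternatives chosen after seeing the data. Causes of these changes were not tested. Signal over background is not part of the values, so no limit from dim spots can be given.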
